A study of Mus musculus with 66 samples.

Results

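The enzymes of central carbon metabolism were followed in BC57, a mouse bladder cancer line, and in mouse normal urothelium (MNU), the epithelium that lines the bladder. The set holds 46 genes of the 39179 genes in the deposited count tables, named by symbol and matched to the tables by Ensembl identifier, and all 46 were found. It comprises 2 glucose transporters, 9 genes of upper glycolysis, 7 of lower glycolysis, 5 of pyruvate dehydrogenase and its control, 7 of the pentose phosphate pathway, 10 of the tricarboxylic acid (TCA) cycle and 6 of cytosolic and side reactions. BC57 cells were grown in serum-containing medium. MNU is the normal urothelium dissected from 9 mice, and no label says how the animals were combined. Both samples were kept in paraffin after 24 hours in formalin (FFPE) or fresh frozen (FF). The Ovation SoLo kit was given 50 pg, 250 pg or 2 ng of each FFPE and FF sample and the SMARTer Pico kit 250 pg or 2 ng; both prepare strand-specific libraries from total RNA and remove ribosomal sequences. Poly(A) libraries took 1 µg of FF RNA. This gives 22 groups of 3 repeat libraries. The repeats are libraries of 1 RNA sample, so p-values measure the spread between libraries and not that between mice or cultures.

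Glycolysis breaks glucose down to pyruvate in the cytosol, and the pentose phosphate pathway branches off near its start to make NADPH and ribose. Pyruvate dehydrogenase feeds pyruvate into the TCA cycle of the mitochondrion, which oxidises it for ATP production and supplies precursors for biosynthesis. Proliferating and tumour cells, bladder carcinomas among them, are known for high glucose uptake and glycolysis even in the presence of oxygen. Several steps are catalysed by alternative isoenzymes whose expression depends on the tissue.

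Total counts ran from 18499591 to 36187226 per poly(A) library, from 928722 to 4706030 per Ovation library and from 651879 to 7152648 per SMARTer library. Proliferation markers summed to 1539 to 1599 CPM (counts scaled to library depth, with TMM factors over each kit's table) in BC57 and to 27.5 to 28.8 CPM in MNU in the poly(A) libraries. MNU libraries also held transcripts of other cells, which are given here because they move with the comparison of BC57 with MNU. In the same libraries 6 fibroblast markers, 6 of 6 lower in BC57, summed to 6.24 to 8.56 CPM in BC57, against 9248 to 10022 CPM in MNU. The 5 endothelial markers summed to 0.759 to 1.17 CPM in BC57 and 243 to 250 CPM in MNU, and the 6 smooth muscle markers to 10.1 to 12.2 CPM in BC57 and 206 to 224 CPM in MNU. Immune markers stood at 20.99 to 21.5 CPM in BC57 and 162 to 168 CPM in MNU, Schwann and neural markers at 24.8 to 26.9 CPM in BC57 and 419 to 448 CPM in MNU, adipocyte markers at 5.13 to 5.34 CPM in BC57 and 505 to 538 CPM in MNU, and erythroid markers at 3.15 to 3.41 CPM in BC57 and 40.03 to 45.2 CPM in MNU. No count of C1qa, Hbb-bs or Hbb-bt was found in BC57, and none of Adipoq or Myh4 in either sample. The adipocyte list holds 3 genes, and with Adipoq absent its sums come from the others, so they do not establish adipocytes in MNU. Skeletal muscle markers were low in both, at 3.85 to 4.19 CPM in BC57 and 2.35 to 2.91 CPM in MNU. The 12 urothelial markers summed to 6146 to 6464 CPM in BC57 and to 12690 to 13849 CPM in MNU, with 3 of 12 higher and 8 lower in BC57. In the low-input libraries the fibroblast, smooth muscle, endothelial, immune, neural and adipocyte sums stayed lower in every BC57 library than in every MNU library, while the erythroid sums overlapped in some conditions. The urothelial sum was lower in BC57 in every condition except SMARTer FFPE, where MNU library 3 had 674 CPM at 250 pg and 859 CPM at 2 ng, below all BC57 libraries, and 73.95 and 143 CPM of skeletal muscle markers. BC57 library 3 of SMARTer FFPE had 41.5 and 26.8 CPM of skeletal muscle markers, against 1.09 to 8.29 CPM in BC57 libraries 1 and 2. Its fibroblast markers stood at 37.9 and 52.3 CPM, against 7.62 to 16.3 CPM in BC57 libraries 1 and 2. The part of these other cells in the results below was not tested, and in bulk RNA fewer cells of a type and less RNA per cell cannot be told apart.

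In the poly(A) libraries, most steps from glucose uptake to pyruvate and on to citrate were expressed at higher levels in BC57 than in MNU. Of the 46 genes, all tested, 32 rose and 13 fell in BC57, and Pdha1 was not called (edgeR quasi-likelihood test, Benjamini-Hochberg adjusted p under 0.05 over 17934 genes). Among all genes tested, 42.8% were called higher and 48.5% lower. The median log2 fold change of the 46 genes was 0.69, against -0.12 for all genes, and the median of all genes was -0.25 when counts were scaled by library totals alone. Together the 46 genes took 1.75% ± 0.0309 of all counts in BC57 and 0.766% ± 0.0136 in MNU (SD, n = 3 libraries each). Of the calls, 21 genes were at least 2-fold higher and 5 at least 2-fold lower in BC57.

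**Figure D1:**
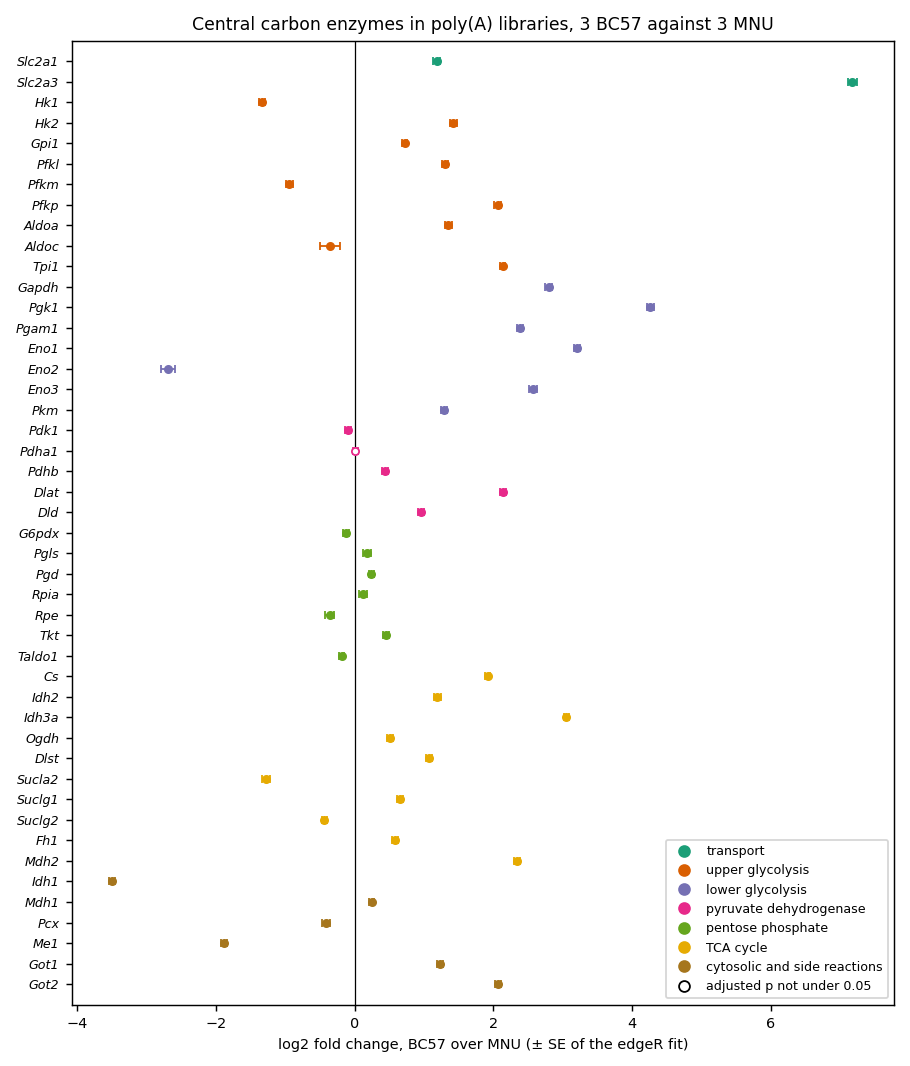
Log2 fold change of BC57 over MNU in the poly(A) libraries for each of the 46 genes, coloured by pathway, with the SE of the fit; open symbols were not called. Glycolytic genes from Slc2a3 (7.17) to Pkm (1.29) lie mostly to the right, the pentose phosphate genes lie near 0, and Idh1 (-3.49) and Eno2 (-2.69) lie farthest to the left.

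Both facilitative glucose transporters rose. Slc2a3 (GLUT3), a high-affinity transporter, had 333, 333 and 332 CPM in the BC57 libraries, against 2.81, 2.19 and 2.08 CPM in the MNU libraries. This was the largest difference in the set, with a log2 fold change of 7.17 (SE 0.07, edgeR adjusted p = 4.0e-26). Slc2a1 (GLUT1), the widely expressed transporter, had 143, 140 and 144 CPM in BC57 and 59.3, 63.2 and 65.5 CPM in MNU (log2 fold change 1.18, SE 0.04).

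Upper glycolysis split by isoenzyme. Hexokinase 2 (Hk2), which phosphorylates glucose, rose by 1.42 on the log2 scale, whereas Hk1, its counterpart in most normal tissues, had 46.5, 48.6 and 48.5 CPM in BC57 and 115, 121 and 124 CPM in MNU (log2 fold change -1.33, SE 0.04, edgeR adjusted p = 4.8e-17). Phosphofructokinase commits glucose to glycolysis, and its platelet form Pfkp rose by 2.06 and its liver form Pfkl by 1.30, while the muscle form Pfkm had a log2 fold change of -0.94. Pfkp and Pfkm overlap genes on the other strand (Pitrm1 and Senp1) that collected more counts than they did. No source used here says whether counting used strand, so both values are uncertain, as is that of Gpi1 beside a long noncoding RNA. Aldoa, the main aldolase, rose by 1.35, Tpi1 (triosephosphate isomerase) by 2.13 and Gpi1 (glucose phosphate isomerase) by 0.72. Aldoc, the brain aldolase, was near the lower end of the range, with 3.36, 3.18 and 2.85 CPM in BC57 and 3.17, 4.501 and 4.13 CPM in MNU. Its libraries overlapped although it was called lower (log2 fold change -0.36, SE 0.14, edgeR adjusted p = 0.022).

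Lower glycolysis, which yields the ATP of the pathway, rose in 6 of 7 genes. Pgk1 (phosphoglycerate kinase) had 1137, 1105 and 1147 CPM in BC57, against 56.01, 61.4 and 59.01 CPM in MNU, with no overlap (log2 fold change 4.26, SE 0.05, edgeR adjusted p = 4.0e-25). Eno1, the ubiquitous enolase, stood at 1664 ± 48.4 CPM in BC57 and 181 ± 10.2 CPM in MNU (log2 fold change 3.20). Gapdh, often used as a constant reference gene, had 3868, 3687 and 3997 CPM in BC57 and 524, 568 and 575 CPM in MNU. Its log2 fold change was 2.79 (SE 0.05, edgeR adjusted p = 2.7e-22), and the libraries did not overlap. Pgam1 (phosphoglycerate mutase) rose by 2.39, Eno3 (the muscle enolase) by 2.57 and Pkm (pyruvate kinase) by 1.29. Eno2, the neuronal enolase, was the exception at 2.16, 2.06 and 2.13 CPM in BC57 and 13.5, 13.6 and 14.01 CPM in MNU (log2 fold change -2.69, SE 0.10). The neural markers named above were lower in BC57 as well, but so were the fibroblast, endothelial, smooth muscle, immune, adipocyte and erythroid markers. A link of any of them to Eno2 was not tested.

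The pyruvate dehydrogenase complex links glycolysis to the TCA cycle, and its subunits did not move alike. Dlat, its acetyltransferase core, had 217, 219 and 215 CPM in BC57 and 51.1, 50.9 and 46.2 CPM in MNU (log2 fold change 2.14, SE 0.04). Dld, the dihydrolipoyl dehydrogenase shared with other complexes, rose by 0.95 and Pdhb, the beta chain of the decarboxylase, by 0.43. Pdha1, its alpha chain, had 318, 318 and 319 CPM in BC57 and 321, 309 and 317 CPM in MNU, and its log2 fold change of 0.01 was not called (SE 0.04, edgeR adjusted p = 0.75). Pdk1, a kinase that inhibits the complex, lay close to the threshold with a log2 fold change of -0.10 (edgeR adjusted p = 0.043).

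The pentose phosphate genes moved little. Of 7, 4 were called higher and 3 lower, with log2 fold changes between -0.36 (Rpe, ribulose phosphate epimerase) and 0.45 (Tkt, transketolase). G6pdx, which makes the first NADPH of the pathway, had 217, 210 and 219 CPM in BC57 and 222, 238 and 243 CPM in MNU (log2 fold change -0.13, SE 0.04). The others were Pgd, the second NADPH-producing dehydrogenase (0.24), Pgls (6-phosphogluconolactonase, 0.18), Rpia (ribose phosphate isomerase, 0.12) and Taldo1 (transaldolase, -0.19). In all, 8 of the 46 genes lay within 0.25 of 0, 5 of them in this pathway, and a change of scaling can turn such values: Rpia was -0.02 and Pdha1 -0.13 when counts were scaled by library totals alone. G6pdx and Rpe, and Pdha1 above, also overlap well-counted genes on the other strand (Ikbkg, Kansl1l and Map3k15).

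In the TCA cycle 8 of 10 genes rose. Idh3a, the catalytic subunit of the NAD-dependent isocitrate dehydrogenase, had 401, 404 and 392 CPM in BC57 and 48.1, 48.4 and 47.8 CPM in MNU (log2 fold change 3.05, SE 0.04, edgeR adjusted p = 8.8e-24). Mdh2, the mitochondrial malate dehydrogenase, rose by 2.34 and Cs, the citrate synthase that opens the cycle, by 1.92. Idh2 (1.19), Dlst (1.07), Suclg1 (0.65), Fh1 (fumarase, 0.58) and Ogdh (0.50) rose by less. The beta subunits of succinyl-CoA ligase, ATP-forming Sucla2 and GTP-forming Suclg2, fell by 1.27 and 0.43 on the log2 scale.

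The cytosolic and side reactions were divided, with 3 genes higher and 3 lower. Idh1, the cytosolic NADP-dependent isocitrate dehydrogenase and a source of NADPH, had 68.9, 69.9 and 71.4 CPM in BC57, against 805, 790 and 771 CPM in MNU. This was the largest fall of the set (log2 fold change -3.49, SE 0.04, edgeR adjusted p = 1.7e-24). Me1, the cytosolic malic enzyme and another NADPH source, had 77.4, 79.4 and 77.7 CPM in BC57 and 294, 278 and 293 CPM in MNU (log2 fold change -1.89, SE 0.04). Pcx (pyruvate carboxylase), which overlaps Lrfn4 on the other strand, had a log2 fold change of -0.41. The aminotransferases Got2 and Got1 of the malate-aspartate shuttle rose by 2.06 and 1.23, and Mdh1, its cytosolic dehydrogenase, by 0.25.

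Per length of exon, the order of the genes differed between the samples. Gapdh was the most abundant of the 46 in BC57 at 2469 ± 77.0 TPM, followed by Pkm at 1343 ± 19.001 and Pgk1 at 1335 ± 13.4 TPM, 2 values within their spread (SD, n = 3). Aldoa (933 ± 16.4 TPM) and Eno1 (820 ± 18.1 TPM) came next in BC57. In MNU, Idh1 stood first at 774 ± 37.4 TPM, while it ranked 27 in BC57 at 67.0 ± 1.05 TPM. Pkm (563 ± 11.9 TPM), Aldoa (375 ± 20.4 TPM) and Gapdh (365 ± 9.12 TPM) followed in MNU, the last 2 within their spread. The order depends on the length used, an alternative tried after seeing the data: with the longest transcript, or with no division by length, Pkm stood first and Idh1 second in MNU. In BC57 Gapdh and Pkm kept ranks 1 and 2 under both, while Eno1 stood at rank 3 and Pgk1 at rank 5 with the longest transcript and at rank 4 undivided.

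Where isoenzymes share a step, the make-up of the family differed between the samples. Shares were taken as percent of the family's counts per kilobase of exon. Slc2a3 made up 53.1% ± 0.396 of both glucose transporters in BC57 and 1.80% ± 0.386 in MNU. Hk2 made up 65.99% ± 0.486 of both hexokinases in BC57 and 22.4% ± 1.03 in MNU. Among the phosphofructokinases Pfkl held 66.5% ± 0.687 in BC57 and 40.7% ± 0.162 in MNU, Pfkm 18.8% ± 0.733 in BC57 and 54.004% ± 0.221 in MNU, and Pfkp 14.7% ± 0.0826 in BC57 and 5.31% ± 0.226 in MNU. With the length of the longest transcript instead, Pfkl and not Pfkm led in MNU, at 50.7% and 43.6%. Eno1 held 89.8% ± 0.211 of the enolases in BC57 and 79.3% ± 0.662 in MNU, Eno2 0.131% ± 0.000581 in BC57 and 6.88% ± 0.277 in MNU, and Eno3 10.1% ± 0.210 in BC57 and 13.8% ± 0.578 in MNU. Eno3 thus rose in level but held a smaller share in these poly(A) libraries. Aldoa was over 99% in both samples (99.7% in BC57, 99.1% in MNU), and Sucla2 held 24.3% ± 0.956 of the succinyl-CoA ligase beta subunits in BC57 and 36.6% ± 1.77 in MNU. No test was made, since 3 libraries against 3 cannot give an exact permutation p below 0.1.

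**Figure D2:**
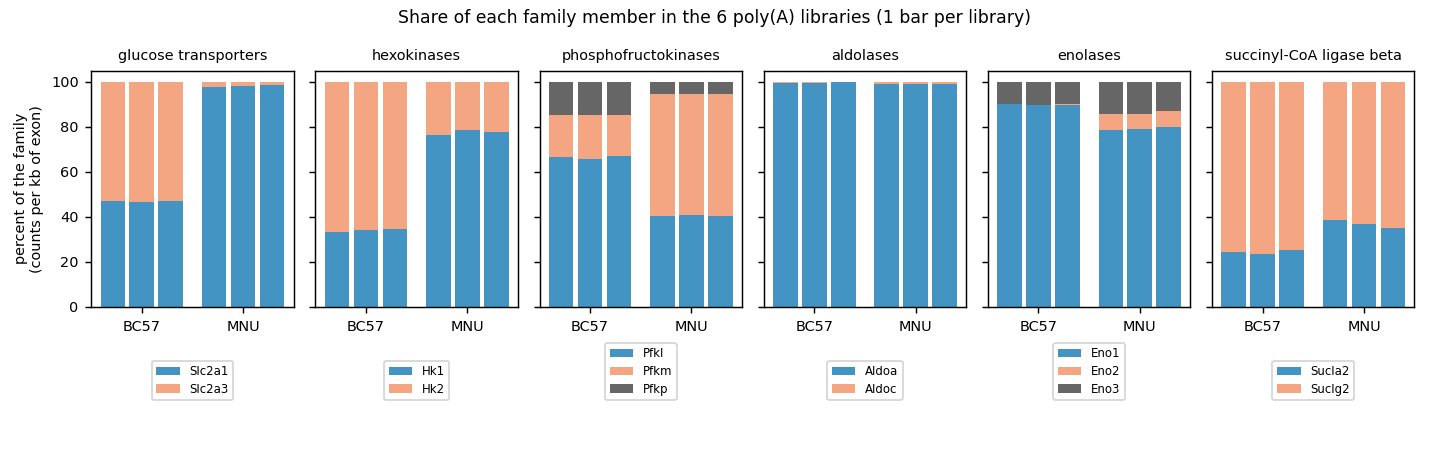
Share of each isoenzyme in its family, in percent of counts per kilobase of exon, with 1 bar for each of the 3 BC57 and 3 MNU poly(A) libraries. The bars of 1 sample are nearly alike, and Slc2a3 (53.1% in BC57, 1.80% in MNU) and Hk2 (65.99% in BC57, 22.4% in MNU) show the widest shifts.

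The same shift was seen in the low-input libraries for some families. The BC57 and MNU libraries were separated in all 11 conditions for Slc2a3, Hk2 and Eno2, in 9 for Eno1, in 8 for Pfkm and Pfkp and in 6 for Pfkl. Separation held in only 5 conditions for Sucla2 and Suclg2, in 4 for Aldoa and Aldoc and in 1 for Eno3. Group means of the Eno3 share ran from 4.41% to 10.1% in BC57 and from 3.64% to 22.4% in MNU. Group means of the Hk2 share ran from 63.4% to 84.4% in BC57 and from 22.4% to 52.6% in MNU. The Eno2 share stayed between 0.0105% and 0.426% in BC57 and between 6.75% and 25.3% in MNU. These shares rest on few counts in places. The enolase family had as few as 64 counts in a library, the glucose transporters as few as 5 and the succinyl-CoA ligase beta subunits as few as 0.

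Promoter sequences are given as the 250 bases upstream of the annotated start in the RefSeq promoter table (GRCm38.p6). They cover the 2 genes of largest rise and the 2 of largest fall that have an entry there. Of the 46 genes 44 had an entry, and Slc2a3 and Idh3a had none. Capitals mark ACGTG on either strand, a core bound by hypoxia-inducible factors, known regulators of glycolytic genes. Pgk1 lies at chrX:106186850-106187099 (plus strand), the first of the 3 Eno1 entries at chr4:150236458-150236707 (plus), the first of the 2 Idh1 entries at chr1:65186480-65186729 (minus) and Eno2 at chr6:124769674-124769923 (minus).
Pgk1: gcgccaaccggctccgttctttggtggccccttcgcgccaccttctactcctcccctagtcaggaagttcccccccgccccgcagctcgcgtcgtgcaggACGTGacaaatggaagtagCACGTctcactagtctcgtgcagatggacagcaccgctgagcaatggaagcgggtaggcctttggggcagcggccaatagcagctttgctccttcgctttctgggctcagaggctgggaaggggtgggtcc
Eno1: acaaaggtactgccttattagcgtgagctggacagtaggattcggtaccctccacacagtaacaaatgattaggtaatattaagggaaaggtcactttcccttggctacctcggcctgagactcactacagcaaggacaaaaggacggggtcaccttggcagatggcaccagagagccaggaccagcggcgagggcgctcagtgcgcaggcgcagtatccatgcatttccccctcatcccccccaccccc
Idh1: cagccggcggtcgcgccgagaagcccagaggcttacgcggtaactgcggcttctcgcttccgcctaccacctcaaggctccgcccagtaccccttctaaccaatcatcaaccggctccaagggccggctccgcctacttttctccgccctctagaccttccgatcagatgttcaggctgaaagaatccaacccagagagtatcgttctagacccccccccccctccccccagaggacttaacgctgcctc
Eno2: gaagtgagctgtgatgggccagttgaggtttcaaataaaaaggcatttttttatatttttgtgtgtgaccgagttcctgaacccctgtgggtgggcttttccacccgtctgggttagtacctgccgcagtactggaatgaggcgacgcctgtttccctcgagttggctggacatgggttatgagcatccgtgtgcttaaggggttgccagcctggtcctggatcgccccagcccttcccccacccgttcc

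The Pgk1 stretch held 2 matches to ACGTG, whose first bases lie 150 and 131 bases before the start, and the other 3 stretches held none. The Eno1 stretch does hold GCGTG, a related core that was not marked. Over 64 promoter windows of the members, ACGTG on either strand was present in 29.7%, against 16.6% of all 32851 windows of the same length in the table. The related core GCGTG was present in 53.1% of the members' windows and in 28.2% of all windows, and the 2 motifs may overlap each other on opposite strands. Counted by gene, 9 of 30 genes called higher in BC57 had a window with ACGTG, against 3 of 13 called lower (27.3% of the 44 members and 18.5% of all 27025 genes). Counted by window, the shares were 36.6% of 41 and 18.2% of 22. Windows of 1 gene can share sequence and base composition was not matched, so these shares are a description. The letters say nothing on whether a factor was bound.

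Other genes of these pathways, taken from lists chosen with earlier results of these data known, were less one-sided. Of 67 such genes 57 were tested in the poly(A) libraries, of which 32 were higher, 20 lower and 5 not called in BC57, with a median log2 fold change of 0.29. Genes linked to the TCA cycle were mostly higher (15 higher and 3 lower of 20), other glycolytic and gluconeogenic genes were even (10 higher and 11 lower of 23 tested), the regulators of pyruvate entry were even too (4 and 4 of 9), and 3 of 5 other pentose phosphate genes were higher and 2 lower. Ldhb, the heart-type lactate dehydrogenase, had 2.52 ± 0.160 CPM in BC57 and 507 ± 21.6 CPM in MNU (log2 fold change -7.63, SE 0.07). Its counterpart Ldha, named after its values were seen, had 1829 ± 48.1 CPM in BC57 and 254 ± 11.4 CPM in MNU (log2 fold change 2.85). Fbp1, a gluconeogenic phosphatase that opposes phosphofructokinase, had no count in the BC57 libraries and 16.4 ± 1.42 CPM in MNU, at least 479-fold lower in BC57 if the group is set to 3 counts. Hk3, a minor hexokinase, had 2 counts in BC57 and 75 in MNU, a ratio of 41.5 between the samples (exact 95% counting interval 11.1 to 349). Gls2, a glutaminase, had 43.2 ± 1.25 CPM in BC57 and 0.844 ± 0.162 CPM in MNU (log2 fold change 5.72), and Me2, the mitochondrial malic enzyme, 158 ± 4.41 CPM in BC57 and 14.1 ± 0.616 CPM in MNU (log2 fold change 3.49). Intervals and floors cover counting error only.

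The low-input kits were set beside the poly(A) libraries, the study's reference, to see which of these differences they recover. BC57 was again compared with MNU in each of the other 10 combinations of kit, preservation and input. No gene was called in opposite directions in any pair of the 11 comparisons. Slc2a3, Aldoa, Tpi1, Gapdh, Pgk1, Eno1, Cs, Idh3a, Mdh2 and Got2 were called higher in all 11, and Slc2a1, Pfkp, Pgam1, Pkm, Dlat, Dlst and Got1 in 10. Idh1 and Me1 were called lower in 10, and Pdha1 in none. The same patterns are not given for all genes, and every comparison draws on the same BC57 and MNU samples. They are therefore not read as particular to these enzymes.

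**Figure D3:**
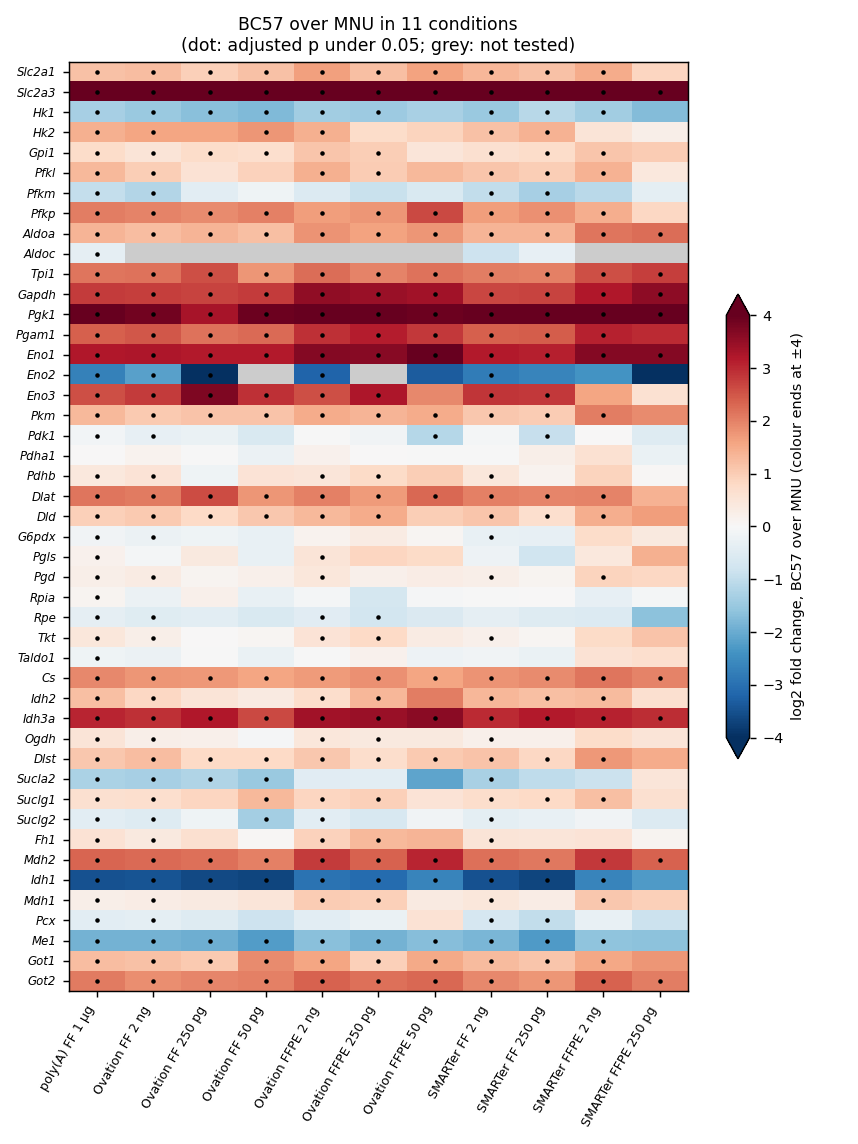
Log2 fold change of BC57 over MNU for the 46 genes (rows) in 11 conditions (columns), red for higher and blue for lower in BC57; a dot marks an adjusted p under 0.05 and grey a gene that was not tested. The lower glycolysis rows from Gapdh to Eno1, and Cs, Idh3a and Mdh2, are red throughout, Idh1 and Me1 are blue throughout, and the dots thin out toward the right-hand FFPE columns, with 10 calls in the last.

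Frozen RNA at 2 ng recovered nearly all calls. With Ovation, 30 genes were higher and 11 lower of 45 tested (37.6% and 41.4% of all genes). Of the 45 genes called in the poly(A) libraries, 41 were called the same way. Here and below, the matching recovery over all genes is not given, so these counts do not set the members apart. Among all genes, 16370 of 17934 were called in the poly(A) libraries and 10291 of 13018 with Ovation at 2 ng of frozen RNA. The leading genes were again Slc2a3 (6.53), Pgk1 (3.87) and Eno1 (3.22) upward and Idh1 (-3.45), Eno2 (-2.16) and Me1 (-1.89) downward, on the log2 scale. With SMARTer, 30 were higher and 9 lower of 46 (36.3% and 41.2% of all genes), and 39 poly(A) calls were made the same way. The SMARTer log2 fold changes of Slc2a3 (6.64), Eno1 (3.17), Idh1 (-3.48) and Me1 (-1.83) were close to those with Ovation. Those of Pgk1 (4.26) and Eno2 (-2.79) lay farther from no change than with Ovation, where Eno2 had 10 counts in BC57. Gapdh came to 2.78 (SE 0.07) with Ovation and 2.68 (SE 0.08) with SMARTer.

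Smaller inputs of frozen RNA gave fewer calls. Ovation called 22 higher and 5 lower of 44 at 50 pg (20.2% and 25% of all genes) and 20 higher and 5 lower of 45 at 250 pg (21.6% and 26.4%). SMARTer called 24 higher and 6 lower of 46 at 250 pg (23.9% and 27.5%). Of the poly(A) calls, 27, 25 and 30 were made the same way in these 3 comparisons. Slc2a3 had 239, 169 and 184 CPM in BC57 and no count in any of the 3 MNU libraries with Ovation at 50 pg. The ratio there is at least 550 if the MNU group is set to 3 counts. With Ovation at 2 ng of frozen RNA, Slc2a3 did have counts in MNU (15 counts, mean 2.35 CPM). The figure of 550 thus describes the 50 pg libraries and not the level in MNU. At 50 pg with Ovation, Eno1 (3.19) and Pgk1 (3.91) followed upward on the log2 scale, and Idh1 (-3.67), Me1 (-2.22) and Hk1 (-1.78) led downward. At 250 pg with Ovation, Eno3 (3.75), Slc2a3 (5.18) and Pgk1 (3.29) led upward and Idh1 (-3.61) and Me1 (-1.96) downward. Eno3 rested there on 14 counts in MNU and Slc2a3 on 50, with no count of either in MNU library 3. Eno2 had 3 counts in BC57 and 53 in MNU there, a ratio of 18.5 (exact 95% counting interval 5.99 to 92.4), and Pgk1 was uneven over the MNU libraries, at 78.1 CPM in library 3 beside 34.6 and 36.005 CPM. At 250 pg with SMARTer, Slc2a3 (7.70), Pgk1 (4.12) and Idh3a (3.18) led upward and Idh1 (-3.68), Me1 (-2.26) and Pfkm (-1.31) downward. The Gapdh log2 fold change was 2.78 (SE 0.12) with Ovation at 50 pg, 2.71 (SE 0.11) at 250 pg and 2.69 (SE 0.11) with SMARTer at 250 pg.

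Fixed RNA with Ovation was again led by Slc2a3, Pgk1 and Eno1 upward and by Idh1 among the genes lower in BC57, joined at 2 ng by Eno2. There were 17 higher and 3 lower of 45 at 50 pg (14.7% and 18.8% of all genes), 28 higher and 4 lower of 44 at 250 pg (24.0% and 28.2%), and 31 higher and 6 lower of 45 at 2 ng (36.7% and 40.3%). Poly(A) calls made the same way numbered 20 at 50 pg, 32 at 250 pg and 37 at 2 ng. At 2 ng Slc2a3 (5.83), Pgk1 (4.47) and Eno1 (3.66) led upward and Eno2 (-3.19), Idh1 (-2.95) and Me1 (-1.68) downward. At 250 pg the leaders were Slc2a3 (6.17), Pgk1 (4.48) and Eno1 (3.64), against Idh1 (-3.09), Me1 (-1.88) and Hk1 (-1.47). At 50 pg they were Slc2a3 (6.70), Eno1 (3.99) and Pgk1 (3.92), against Idh1 (-2.63), Me1 (-1.71) and Pdk1 (-1.13). The Slc2a3 value at 50 pg rested on 16, 1 and 0 counts in the MNU libraries. For Gapdh the 3 inputs, low to high, gave log2 fold changes of 3.35 (SE 0.20), 3.46 (SE 0.10) and 3.54 (SE 0.07). In the same order the median over the tested members was 0.97, 0.95 and 1.01 in FFPE and 0.74, 0.63 and 0.66 in FF, with medians of all genes between -0.10 and -0.03.

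Fixed RNA with SMARTer gave 27 calls at 2 ng and 10 at 250 pg, the lowest count of the 11 comparisons, and both counts were higher without the libraries numbered 3. MNU library 3 had 651879 counts at 250 pg and 780106 at 2 ng, and the 46 genes took 0.179% and 0.182% of them, against 0.285% and 0.288% in the other 2 MNU libraries at 250 pg and 0.275% and 0.276% at 2 ng. BC57 library 3 had 2458215 and 2480848 counts, with 0.595% and 0.591% in the 46 genes, beside 0.655% to 0.663% in the other BC57 libraries. At 2 ng 24 genes were higher and 3 lower of 45 (13.7% and 16.3% of all genes), and without the libraries numbered 3 there were 32 higher and 4 lower. At 250 pg 10 were higher and none lower of 45 (3.8% and 5.58%), and 15 and 2 without them. Idh1 in MNU shows the spread, with 352, 333 and 78.8 CPM at 2 ng and 288, 238 and 15.2 CPM at 250 pg. At 2 ng Slc2a3 had 5.86, 0.880 and 25.4 CPM in the MNU libraries, and its log2 fold change was 4.22 with all libraries and 5.86 without those numbered 3. With all libraries Pgk1 (4.68) stood above Slc2a3 and Eno1 (3.67) below it, and without those numbered 3 Slc2a3 stood above Pgk1 (4.65). With all libraries Idh1 (-2.64), Me1 (-1.61) and Hk1 (-1.38) led downward, and Gapdh stood at 3.19 (SE 0.33). With the library number as a block Me1 was no longer called (log2 fold change -1.47, edgeR adjusted p = 0.059). At 250 pg the leaders were Pgk1 (7.27, from 12 counts in MNU), Slc2a3 (6.96) and Eno1 (3.66), with Gapdh at 3.57 (SE 0.44). Of the poly(A) calls 27 were made the same way at 2 ng and 10 at 250 pg.

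**Figure D4:**
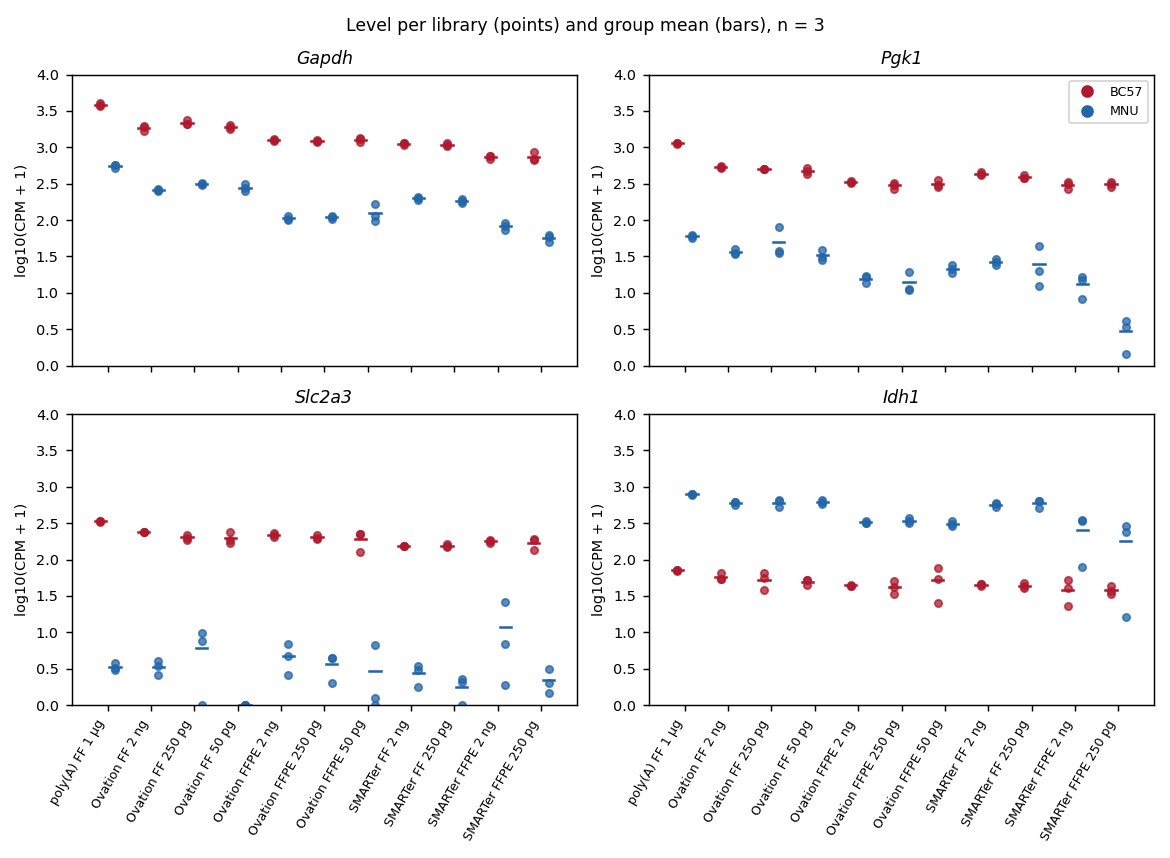
Level of Gapdh, Pgk1, Slc2a3 and Idh1 in every library as log10(CPM + 1), with BC57 in red left of MNU in blue and a bar for the mean of 3 libraries. BC57 lies above MNU in all 11 conditions for Gapdh, Pgk1 and Slc2a3 (no count of Slc2a3 in MNU with Ovation FF at 50 pg), and below it for Idh1, apart from MNU library 3 of SMARTer FFPE at 250 pg (15.2 CPM).

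Formalin fixation was tested by comparing FFPE with FF at 2 ng within each sample and kit. These comparisons use libraries that also enter those of BC57 with MNU. With Ovation, 27 of 44 genes fell and none rose in FFPE BC57 cells (15.6% of all genes were called lower and 16.6% higher), and the median log2 fold change was -0.32 beside -0.00087 for all genes. Tkt (-0.71), Pcx (-0.71) and Pgk1 (-0.68) fell most. Gapdh had 1288, 1238 and 1213 CPM in FFPE BC57 cells, against 1875, 1938 and 1685 CPM in FF BC57 cells, without overlap (log2 fold change -0.54, SE 0.06, edgeR adjusted p = 1.6e-09). By pathway, 5 of 6 tested genes of lower glycolysis, 6 of 10 of the TCA cycle and 4 of 7 of the pentose phosphate pathway were lower, and neither glucose transporter was called. Under limma on the deposited log2 values, whose scale shifts the median of all genes to 0.27, 10 were lower and 3 higher.

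In MNU more genes were called lower with Ovation than in BC57. In FFPE 34 of 43 genes were lower and Eno2 alone was higher (17.9% and 19.3% of all genes), with a median of -0.54 beside 0.0010 for all genes. Gapdh had 103, 99.5 and 112 CPM in FFPE MNU, against 262, 252 and 259 CPM in FF MNU (log2 fold change -1.28, SE 0.08, edgeR adjusted p = 4.2e-20). Pgk1 fell by 1.26 and Fh1 by 1.15 on the log2 scale. Eno2 had 11.5, 18.1 and 9.46 CPM in FFPE MNU and 6.30, 5.99 and 6.80 CPM in FF MNU (log2 fold change 1.01, SE 0.32, edgeR adjusted p = 0.0091). All 6 genes of the cytosolic and side reactions, 9 of 10 TCA genes and 6 of 8 tested genes of upper glycolysis were lower.

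With SMARTer, 16 of 44 genes were lower and none higher in FFPE BC57 cells (8.57% and 9.25% of all genes), with a median of -0.33 beside 0.01 for all genes. Eno1 (-0.57), Gapdh (-0.57, SE 0.10) and Fh1 (-0.56) fell most, and 14 genes were lower with both kits, 87.5% of the SMARTer calls and 51.9% of the Ovation calls. In MNU none of 45 genes was called by edgeR (1.32% of all genes higher and 0.551% lower), although 23 had an unadjusted p under 0.05 and the median was -0.69 beside 0.08 for all genes. DESeq2 called 16 lower and limma on the deposited log2 values none. Without FFPE MNU library 3, edgeR called 30 lower, Gapdh among them at -1.16 (edgeR adjusted p = 7.1e-07). Gapdh had 91.4, 82.4 and 72.4 CPM in FFPE MNU and 206, 189 and 202 CPM in FF MNU, without overlap (log2 fold change -1.10, SE 0.25, edgeR adjusted p = 0.062).

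Whether fixation moved the genes by different amounts in both samples was tested as an interaction over the 12 Ovation libraries at 2 ng. Of 45 genes, 9 had a smaller fall in BC57 than in MNU and none a larger one (4.26% and 1.64% of all genes were called in these directions), with a median difference of 0.19 beside 0.06 for all genes. Gapdh fell by 0.54 in BC57 and 1.28 in MNU on the log2 scale, a difference of 0.72 (SE 0.10, edgeR adjusted p = 2.9e-07). Mdh1, the cytosolic malate dehydrogenase, fell by 0.32 in BC57 and 1.01 in MNU, a difference of 0.67 (SE 0.14). The difference for Pgk1 was 0.55 (SE 0.17, edgeR adjusted p = 0.034). The count was 5 when libraries were scaled by their totals alone and 3 when they were thinned to equal depth.

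**Figure D5:**
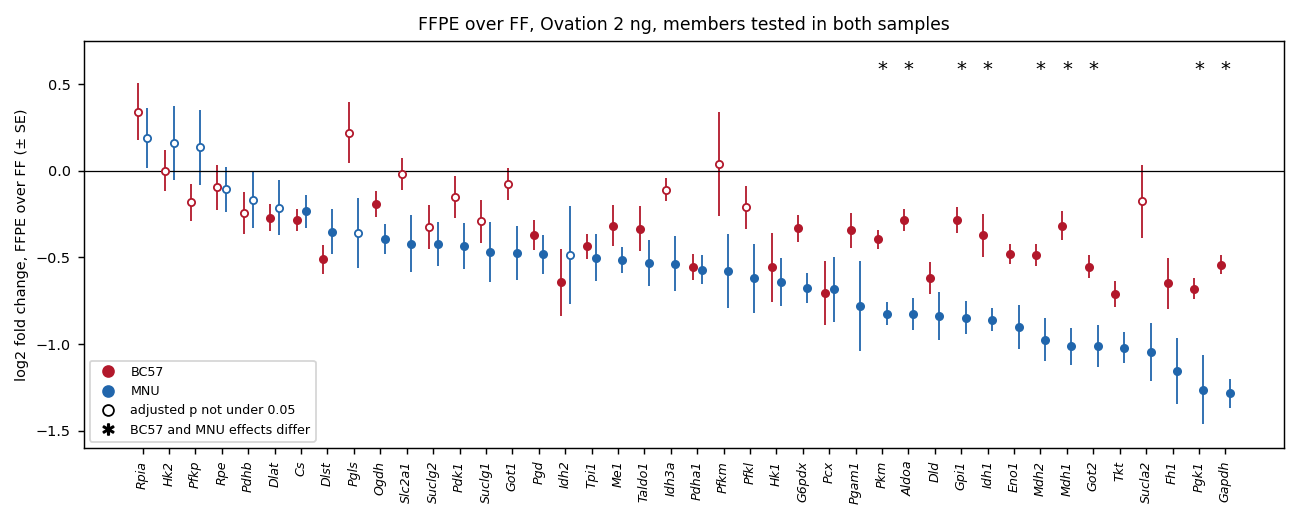
Log2 fold change of FFPE over FF with Ovation at 2 ng, with SE, for the 42 genes tested in both samples, BC57 in red left of MNU in blue and genes ordered by the MNU value. Most points lie below 0, the MNU points reach farther down toward Gapdh (-0.54 in BC57, -1.28 in MNU), and stars mark the 9 genes whose effects differed.

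Input was tested by setting 50 pg against 2 ng of frozen RNA with Ovation. No member was called in BC57 (44 tested; 0.0266% of all genes higher and 0.0% lower) or in MNU (43 tested; 0.0% and 0.0%). At an unadjusted p under 0.05 there were 2 members in BC57 and 1 in MNU, among 793 and 706 genes, and neither DESeq2 nor limma called a member. Gapdh had 1779, 2048 and 1905 CPM at 50 pg and 1875, 1938 and 1685 CPM at 2 ng in BC57 (fitted log2 fold change 0.19, SE 0.06), and 272, 249 and 314 CPM at 50 pg and 262, 252 and 259 CPM at 2 ng in MNU (log2 fold change 0.12, SE 0.11). The spread was wider at 50 pg than at 2 ng: the median coefficient of variation of the members over 3 libraries was 16.8% at 50 pg and 6.97% at 2 ng in BC57, and 20.3% and 8.69% in MNU. Medians of the members were 0.0026 in BC57 and 0.07 in MNU, beside 0.01 and 0.02 for all genes. In BC57 the CPM ratios lay lower than the fitted values by a median of 0.13 on the log2 scale, since the scaling factors differ, so the sign of values this close to 0 depends on the scaling. Slc2a3, with no count in MNU at 50 pg and 15 counts at 2 ng, was not tested. Its ratio is at least 7.17 if the 50 pg group is set to 3 counts. That figure takes the 15 counts as exact and leaves out the spread between libraries, so no input effect is read from it.

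The kits were compared at 2 ng of frozen RNA. Each of these comparisons shares its Ovation libraries with others described above. SMARTer over Ovation gave 14 higher and 11 lower of 44 genes in BC57 (26.7% and 26.2% of all genes) and 17 higher and 10 lower of 44 in MNU (24.6% and 23.9%). The split follows the scaling: with library totals alone it was 5 higher and 27 lower in BC57 and 3 higher and 20 lower in MNU, where the median of all genes stood at -0.34 and -0.31. Pfkl was higher with SMARTer in both samples (log2 fold change 1.57, SE 0.10, in BC57 and 1.48, SE 0.13, in MNU), and Rpe was lower in both (-1.14 in BC57 and -1.24 in MNU). Idh2 (1.14) and Eno3 (1.04) followed upward in BC57, and Taldo1 (0.80) and Hk1 (0.77) in MNU. Pdk1 (-0.58 in BC57, -0.78 in MNU), Pdhb in BC57 (-0.58) and Me1 in MNU (-0.52) were next downward. Gapdh was lower with SMARTer, at -0.47 (SE 0.06) in BC57 and -0.34 (SE 0.07) in MNU.

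Against poly(A), the members were lower with Ovation at 2 ng, 29 of 46 in BC57 with 3 higher (29.6% and 30.3% of all genes) and 33 of 46 in MNU with none higher (28.6% and 28.1%). RNA selection, kit, input and depth all differ in this comparison, so their effects cannot be told apart. Medians were -0.27 in BC57 and -0.42 in MNU, beside -0.02 and -0.03 for all genes, and with library totals alone 36 and 38 were lower. In BC57 Pfkl (-1.66), Eno3 (-1.47) and Taldo1 (-1.20) fell most and Idh3a (0.22), Me1 (0.21) and Dlat (0.12) were the 3 called higher. In MNU Eno3 (-1.89), Aldoc (-1.64) and Pfkl (-1.51) fell most. Gapdh stood at -0.78 (SE 0.05) in BC57 and -0.92 (SE 0.06) in MNU. Near-identical copies took a larger part of the reads in total RNA: Pgk1-rs7 had 0.0769% of the counts of Pgk1 in poly(A) libraries, 10.6% in Ovation and 11.1% in SMARTer libraries, and Pgam1-ps2 1.64% of those of Pgam1 in poly(A) libraries, 20% in Ovation and 14.4% in SMARTer libraries. The counts of these genes and their copies cannot be fully told apart. With Ovation at 2 ng of frozen RNA, the log2 ratio of BC57 over MNU was 3.93 for Pgk1 with its copy and 3.92 without, and 2.41 for Pgam1 with its copy and 2.53 without.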

How the data were processed

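RNA-seq libraries of BC57 and MNU were analysed from the deposited tables. Per the submitters' processing notes, reads were handled with STAR, SAMtools and featureCounts on mm10. Their versions, the annotation and whether strand entered the counting are not stated there. The authors deposited raw counts per gene and log2 values, which equal log2(count × 1000 / upper quartile of nonzero counts + 1). Each comparison was fitted alone with edgeR 4.0.16 (R 4.3.3; quasi-likelihood test, filterByExpr, TMM), and genes were called at a Benjamini-Hochberg adjusted p under 0.05 over all genes tested. SE is the log2 fold change divided by the square root of F. Levels are CPM with TMM factors over each kit's table, so their log2 ratios differ from the fitted fold changes, by a median between -0.29 and 0.08 over the 21 comparisons and by -0.13 for 50 pg against 2 ng in BC57. TPM and isoenzyme shares used exon lengths of GENCODE M21. The fit was also run on simulated data, whose outcome is not given here and is not used as support for any result. The alternatives were DESeq2 1.42.0, limma 3.58.1 on the deposited log2 values, other scalings, no filter, thinning to 651879 counts, a block by library number and leaving out libraries. The members and lists were chosen with earlier results of these data known. All 46 genes are named in the poly(A) comparison. Elsewhere Gapdh and the 3 called genes of largest log2 fold change in each direction are named; for the other pathway genes, the 3 largest in each direction, of which 1 is not reported here. Same-numbered libraries deviated together (every correlation over 0.1) in the 4 comparisons within SMARTer at 2 ng, with correlations from 0.123 to 0.552, so the numbers pair the libraries there; the pairing comes from the data and not from a label.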

Additional observations from a re-analysis of the deposited data

Results flagged for a closer look

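For 9 genes the effect of fixation with Ovation at 2 ng differed between the samples, by the interaction test (edgeR, adjusted p under 0.05). The effect in BC57 minus that in MNU, on the log2 scale, was 0.72 for Gapdh, 0.67 for Mdh1, 0.55 for Pgk1, 0.53 for Gpi1, 0.51 for Aldoa, 0.46 for Mdh2, 0.46 for Idh1, 0.43 for Got2 and 0.40 for Pkm. All 9 fell in FFPE in both samples. Over 19 alternatives the call was lost in 9 for Pgk1, 8 for Got2, 5 for Mdh2, 4 for Idh1 and 1 each for Mdh1 and Pkm, and in none for Gapdh, Gpi1 and Aldoa.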

How the results depend on the processing

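Numbers of the 46 genes called were within 1.5 times of the count reported for the other settings and comparisons not named here. With SMARTer FFPE at 250 pg, 17 were called by DESeq2 and 17 without the libraries numbered 3 (10 reported). For FFPE over FF, BC57 with Ovation had 13 by limma and 12 after thinning (27 reported), BC57 with SMARTer 0 by limma and 7 after thinning (16 reported), MNU with Ovation 21 after thinning (35 reported), and MNU with SMARTer 1 with library totals, 16 by DESeq2, 1 after thinning and 30 without the libraries numbered 3 (0 reported). For SMARTer over Ovation, BC57 had 16 after thinning (25 reported) and MNU 16 by DESeq2 and 12 after thinning (27 reported). The interaction had 5 with library totals and 3 after thinning (9 reported). Thinning leaves fewer counts per library; the cause of the other changes was not tested.

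Leaving out 1 library gave 8 to 33 calls with SMARTer FFPE at 2 ng, the low counts being 8 and 9 without BC57 libraries 1 and 2 and 12 and 10 without MNU libraries 1 and 2. At 250 pg it gave 4 to 17, with 4 without BC57 library 1 or 2, 5 and 4 without MNU libraries 1 and 2, and 17 without MNU library 3. For FFPE over FF with SMARTer it gave 5 to 18 in BC57, with 5, 5 and 8 without FF libraries 1, 2 and 3, and 0 to 30 in MNU, with 30 without FFPE library 3. For SMARTer over Ovation in MNU it gave 17 to 25, with 17 without Ovation library 3, and for the interaction 6 to 11.

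The replicate block moved no count by over 1.5 times: it gave 44 calls in the poly(A) comparison (45 without it), 26 with SMARTer FFPE at 2 ng (27), 22 for FFPE over FF in BC57 with SMARTer (16), 0 in MNU (0) and 11 for the interaction (9).

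Some log2 fold changes turned sign. For BC57 over MNU they became -0.13 (Pdha1) and -0.017 (Rpia) with library totals in the poly(A) libraries, and -0.11 (Pgd), -0.056 (Rpia) and -0.0098 (Mdh1) after thinning. With Ovation FF at 2 ng limma gave -0.019 (Tkt) and -0.0070 (Ogdh), and with SMARTer FF at 2 ng thinning gave -0.089 (Fh1). For FFPE over FF in BC57 with Ovation, limma gave 0.25 (Slc2a1) and 0.074 (Ogdh). For SMARTer over Ovation with library totals, BC57 had -0.35 (Slc2a1), -0.068 (Gpi1), -0.0014 (Pgam1), -0.14 (Pkm), -0.35 (Dld), -0.18 (Idh3a), -0.21 (Dlst), -0.016 (Suclg1) and -0.19 (Mdh2). MNU had -0.21 (median of the members), -0.12 (Gpi1), -0.11 (Pkm), -0.32 (Dld), -0.31 (G6pdx), -0.052 (Dlst) and -0.057 (Mdh2), and after thinning -0.031 (Pfkp). For Ovation over poly(A) with library totals, BC57 had -0.057 (Dlat) and -0.18 (Ogdh) and MNU -0.16 (Me1).

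Isoenzyme shares moved with the length used: undivided by length, Slc2a3 held 70.1% and Hk2 57.6% of their families in BC57, and with the longest transcript 54.9% and 51.3%. Eno3 moved by over 2 times, to 4.48% in BC57 and 6.46% in MNU with the longest transcript and to 3.49% in BC57 and 4.96% in MNU undivided. Hk2 in MNU stood at 13.6% with the longest transcript and 16.8% undivided, Pfkm undivided at 8.93% in BC57 and 34.5% in MNU, and Pfkp undivided at 28.02% in BC57 and 13.6% in MNU. Over 3 libraries the median coefficient of variation of the members was 71.2% in MNU SMARTer FFPE at 250 pg, where library 3 stands apart, and 2.13% in BC57 poly(A), and the part of depth in this was not tested.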
